A study of Oryza brachyantha and Oryza sativa Japonica Group and Oryza glaberrima with 38 samples.

Results

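Chromosome 4 was followed in 4 rice species and a close relative by where chromatin immunoprecipitation sequencing (ChIP-seq) had found histone marks. The intervals were the authors' peaks, the stretches in which an immunoprecipitated library exceeded its control, and all those on chromosome 4 that lay beyond 500 kb from either end were taken. They numbered 43817 of 497731 peaks on the numbered chromosomes of the 5 species (8.8%), in 20 lists, out of 45569 peaks on the whole of chromosome 4. The choice rested on position alone and used no measured value.

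The lists came from Oryza sativa (Japonica Group, cultivated Asian rice), O. glaberrima (cultivated African rice), the wild species O. punctata and O. brachyantha, and Leersia perrieri, a grass of the neighbouring genus. Shoots were taken from seedlings 2 weeks after germination, and aerial tissue from tillering plants 60 days after germination. H3K9me2 was mapped in O. sativa seedlings (2 replicates) and tillering plants (1 library), in O. brachyantha seedlings (1) and tillering plants (2, labelled batch 1 and batch 2), and in tillering plants of O. glaberrima, O. punctata and L. perrieri (1 each). The other marks were H3K27me and H3K56Ac in O. sativa seedlings, H3K4me3 in O. sativa tillering plants, H3K4me3 and H3K27me in O. brachyantha seedlings, and H3K4me2, H3K4me3 (both batches), H3K9Ac, H3K27me2 and H3K56Ac in O. brachyantha tillering plants. No cultivar, strain, treatment or transgene was given for any group, and each tissue holds many cell types, so a peak stands for an average over them.

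H3K9me2, dimethylation of lysine 9 of histone H3, is the mark by which plants label constitutive heterochromatin. In Arabidopsis it is written by SUVH-type methyltransferases that bind methylated DNA, and it draws in a DNA methyltransferase in turn, so that the histone mark and non-CG DNA methylation maintain each other over transposons and repeats. Monomethylation of lysine 27 is a second mark of constitutive heterochromatin in plants. Trimethylation of lysine 4 and acetylation of lysines 9 and 56 mark genes that are open or transcribed, and are called active marks below. Dimethylation of lysine 4 (H3K4me2) was grouped with them by its place alone and was not read as a sign of transcription. Heterochromatin usually gathers around the centromere. In cultivated rice, chromosome 4 has a short arm that is known from cytology to be largely heterochromatic and a long arm that is largely euchromatic. Positions below count from the first base of each assembly's chromosome 4, and the midpoint of its length divides it into a near side, from the first base to the midpoint, and a far side beyond it. The length was taken as the end of the last peak and was 35.3 Mb in O. sativa (assembly tigr6), 26.3 Mb in O. glaberrima, 33.7 Mb in O. punctata, 21.8 Mb in O. brachyantha (assembly RS2) and 23.3 Mb in L. perrieri. Neither the centromeres nor the orientation of the assemblies to each other was used.

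Numbers of reads per library were not in the files used here, so the depth behind a peak is unknown. Between lists, the median −log10 q of the H3K9me2 peaks on the near side of chromosome 4, as the authors gave it, ran from 0.702 in O. punctata and 0.949 in L. perrieri to 2.63 in O. brachyantha seedlings. Absolute coverage is therefore given for each list as it stands, and species are set side by side mainly by the ratio between the sides of the same list. Most groups were single libraries, and nothing in the labels says that replicates came from separate plants.

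In every H3K9me2 list the near side of chromosome 4 carried more of the mark than the far side, by 3.37-fold to 41.7-fold in covered share, which is the percent of the length inside peaks. O. brachyantha was the most uneven species. Few H3K9me2 peaks were called on its far side. In O. brachyantha seedlings, H3K9me2 covered 21.7% of the near side and 0.853% of the far side, so that the near side held 96.2% of the covered bp. At tillering the shares were 14.0% and 0.336% in batch 1 and 19.7% and 0.708% in batch 2. The near side held 97.7% and 96.5% of the bp in these libraries (97.1 ± 0.798% SD, n = 2), and all 3 O. brachyantha values stood above those of every other species. This was not limited to chromosome 4. The median near-side share over the 12 chromosomes was 82.2% in O. brachyantha seedlings and 83.5% and 82.7% at tillering. In the lists of the other species it was 60.8% to 67.8%. On chromosome 4 of O. brachyantha the log2 ratio of near over far side was 4.67 in seedlings and 5.09 ± 0.413 (SD, n = 2) at tillering.

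In O. sativa the near side was the richer one as well, but the far side kept a clear share of H3K9me2. In seedlings, H3K9me2 covered 33.6% of the near side and 7.78% of the far side in replicate 1 and 34.7% and 9.93% in replicate 2. At tillering it covered 39.4% and 10.1%. The near side held 81.2% and 77.8% of the bp in the seedling replicates (79.5 ± 2.44% SD, n = 2) and 79.6% at tillering, so the tillering value lay between the replicates and no difference between stages was seen beyond their spread. The mean over the 3 O. sativa lists was 79.5% and over the 3 O. brachyantha lists 96.8% (log2 ratios of 1.96 and 4.95), and the lists of the species did not overlap. The two-sided exact permutation test over these 3 against 3 lists, chosen after the values were seen, gave p = 0.1, the smallest it can give, so 0.05 could not be reached. Those 6 lists mix stages and controls.

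O. glaberrima had 20.4% of its near side and 4.04% of its far side under H3K9me2, and its near side held 83.5% of the bp. L. perrieri had 12.6% and 2.43%, with 83.9% of the bp on the near side. In O. punctata, where peaks were narrow (median width 447 bp) and covered 2.13% of the chromosome, the sides had 3.28% and 0.973%, and the near side held 77.1%. These 3 values lay close to those of O. sativa and below those of O. brachyantha, each from 1 library and without a replicate check.

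**Figure D1:**
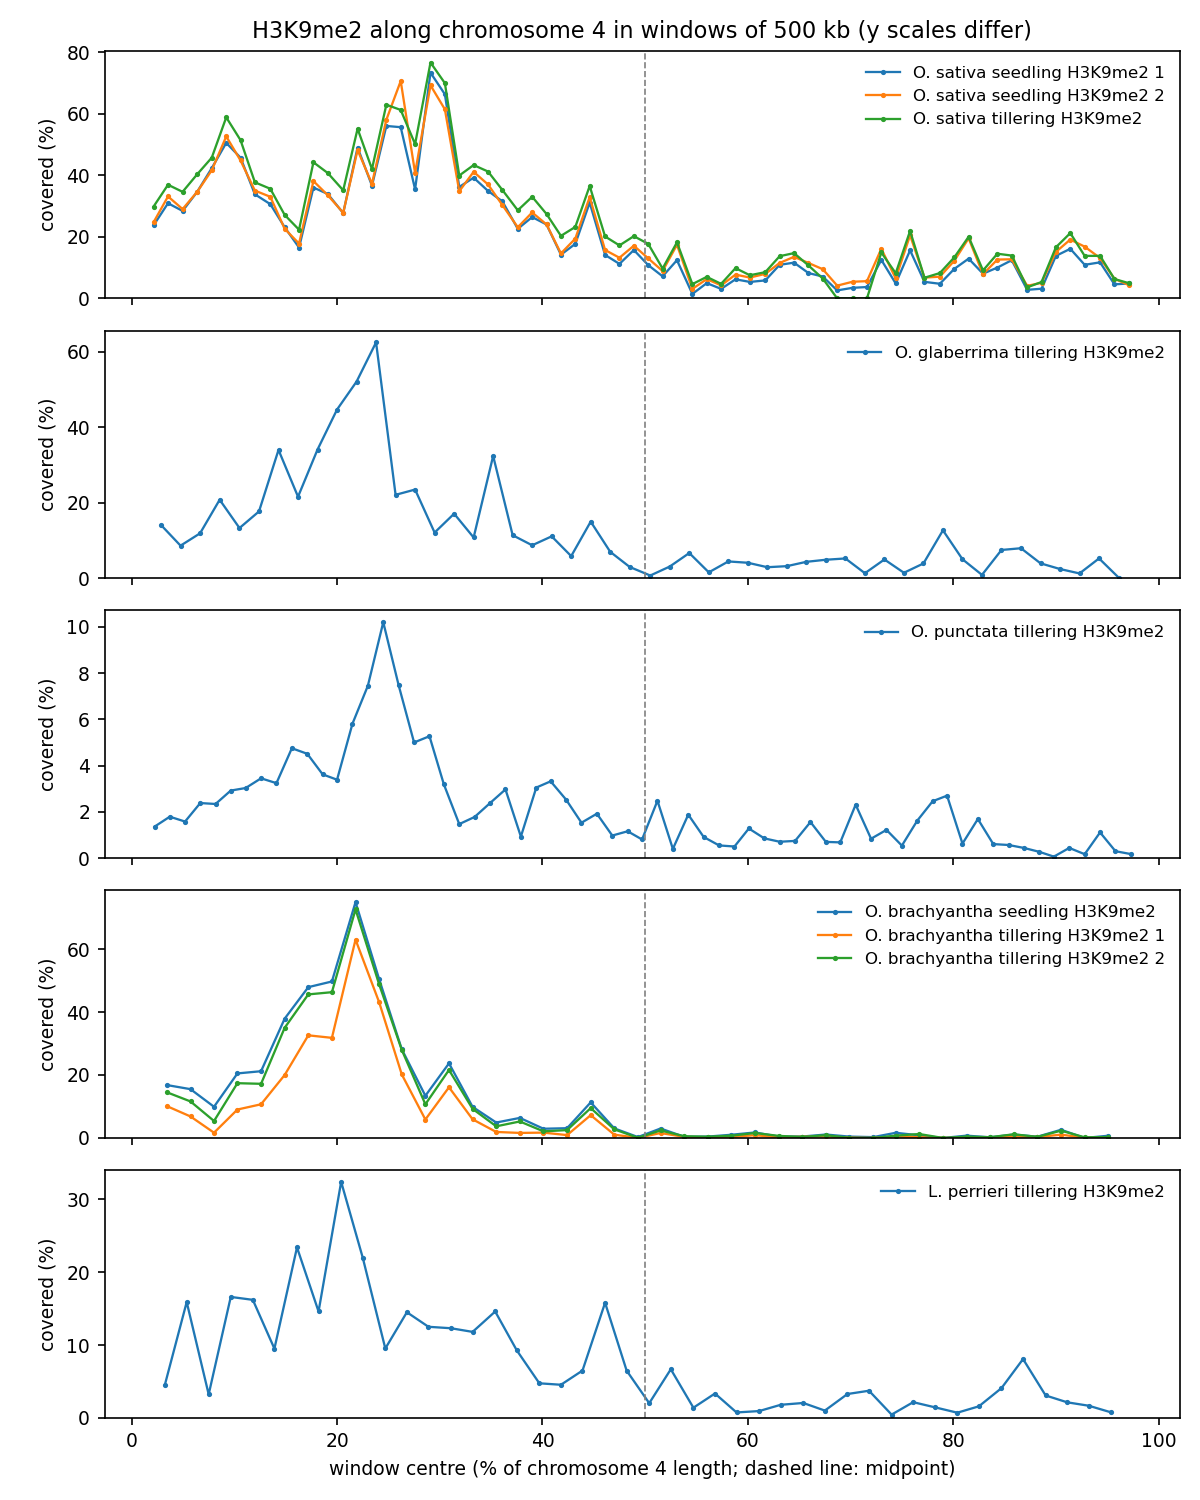
H3K9me2 covered share (%) in each 500 kb window of chromosome 4 against the window's centre as a percent of chromosome length, 1 panel per species and 1 line per library. Coverage peaks between 20.4% and 29.1% of the length in all 9 lists, and the O. brachyantha lines lie close to 0 beyond the midpoint, with no window above 3.0%.

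The highest windows lay in a narrow relative range, although the chromosomes differ in length. The most covered 500 kb window was the one from 4.5 to 5 Mb in all 3 O. brachyantha lists, with 74.9% covered in seedlings and 63.0% and 72.6% in batches 1 and 2 at tillering. It was also the window from 4.5 to 5 Mb in L. perrieri, with 32.4%. In O. glaberrima it was 6 to 6.5 Mb (62.5%) and in O. punctata 8 to 8.5 Mb (10.2%). In O. sativa it was 10 to 10.5 Mb in seedling replicate 1 (73.3%) and at tillering (76.6%) and 9 to 9.5 Mb in replicate 2 (70.6%). The centres of these windows stood at 20.4% to 29.1% of the length. The point that splits the H3K9me2 bp evenly lay at 28.7% to 29.2% of the length in O. sativa, 21.1% to 22.0% in O. brachyantha, 24.0% in O. glaberrima, 26.8% in O. punctata and 25.9% in L. perrieri.

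Not a single far-side window rose above the median near-side window, in any of the 9 lists. Median windows of the near side held 32.7%, 33.3% and 37.3% in the O. sativa lists (seedling replicates 1 and 2, then tillering), while the highest windows of the far side held 16.1%, 20.5% and 21.9%. In O. brachyantha the highest far-side windows held 3.0% in seedlings and 1.57% and 2.39% at tillering, below near-side medians of 15.5%, 7.24% and 11.6%. The sides did overlap at their edges. The poorest near-side window held 0.286% in O. brachyantha seedlings, just short of the midpoint, and 11.2% in O. sativa seedling replicate 1.

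Windows with at least 2 times the mean covered share of all windows of their list were counted as rich, and every rich window of chromosome 4 lay on its near side. The genome-wide share of rich windows stands beside each count. In O. brachyantha, 6 of 21 near-side windows and 0 of 20 far-side windows were rich in each list, against 17.5% of all windows in seedlings, 16.4% in batch 1 and 17.5% in batch 2. The 6 formed 1 unbroken run from 3 to 6 Mb, the same in all 3 lists. In O. sativa, 17 of 34 near-side windows were rich in seedling replicate 1 (12.5% genome-wide), 11 of 34 in replicate 2 (10.6%) and 11 of 34 at tillering (10.8%), with 0 of 34 on the far side each time. In O. glaberrima 6 of 25 were rich (12.8%), in O. punctata 6 of 33, all between 7 and 10 Mb (11.8%), and in L. perrieri 10 of 22 (14.1%). With only the peaks of −log10 q of at least 2, 4.55% of the L. perrieri near-side windows were rich, in place of 45.5%. Over both sides together, 14.6% of the O. brachyantha windows, 12% of those of O. glaberrima and 9.23% of those of O. punctata were rich, below the genome-wide share. In O. sativa and L. perrieri the chromosome's own share was above it, with 25%, 16.2% and 16.2% in the O. sativa lists and 22.7% in L. perrieri.

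The run in O. brachyantha rose and fell over its 6 windows. In seedlings H3K9me2 covered 37.9%, 47.9%, 49.7%, 74.9%, 50.4% and 28.2% of them from 3 to 6 Mb, and batch 2 at tillering followed with 35.0%, 45.6%, 46.3%, 72.6%, 48.8% and 28.0%. Batch 1 was lower in each, from 20.0% to 63.0%. Its peaks covered 7.16% of the chromosome, against 10.2% in batch 2, and 96.5% of its covered bp lay inside those of batch 2. The longest single H3K9me2 peak of chromosome 4 stood in this run, from 4963532 to 5121461 on assembly RS2 (158 kb) in seedlings. It was 158 kb in batch 2 as well, whereas batch 1 had a peak of 101 kb there, from 4973503 to 5074917. H3K27me covered 91.3% of the seedling peak, H3K27me2 covered 0.522%, and H3K4me2, H3K4me3, H3K9Ac and H3K56Ac covered 0%. No far-side H3K9me2 peak of O. brachyantha was longer than 5.23 kb.

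In O. sativa the near side held more than 1 rise. Coverage in seedling replicates 1 and 2 and at tillering was 50.5%, 52.6% and 58.8% in the window from 3 to 3.5 Mb. It came down to 16.5%, 17.8% and 22.3% in the window from 5.5 to 6 Mb and then rose to the main crest between 8.5 and 11 Mb. All 3 lists showed both rises. The windows at or above the list's mean reached to 16 Mb in seedling replicate 1 (45.4% of the length), whereas in O. brachyantha they ended at 7 Mb in each list (32.1%). In the other O. sativa lists 3 windows (replicate 2) and 1 window (tillering) of the far side also reached the mean.

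Set against the other 11 chromosomes of the same list, chromosome 4 had the highest near-side share of H3K9me2 bp in 8 of 9 lists. In O. punctata it was second, with 77.1% against 77.3% on chromosome 9. The next in rank was chromosome 9 in the O. sativa and O. glaberrima lists (74.8% to 77.3%) and in the O. brachyantha lists (92.8% to 96.2%). In L. perrieri it was chromosome 10 (80.2%). Chromosome 3 was lowest in every list, with 11.9% to 43.9%. The sides follow the direction in which each assembly is numbered, so a share far below 50% on another chromosome is as uneven as one equally far above it. Ranked by distance from 50% in either direction, chromosome 4 was again first in 8 of 9 lists and second in O. punctata. With the peaks of −log10 q of at least 2, chromosome 4 kept the highest near-side share in 6 lists and was again second in O. punctata (80.8%, 38 peaks). It came second in O. sativa tillering (76.3%) and ranked 4 in L. perrieri (73.8%, 53 peaks).

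**Figure D2:**
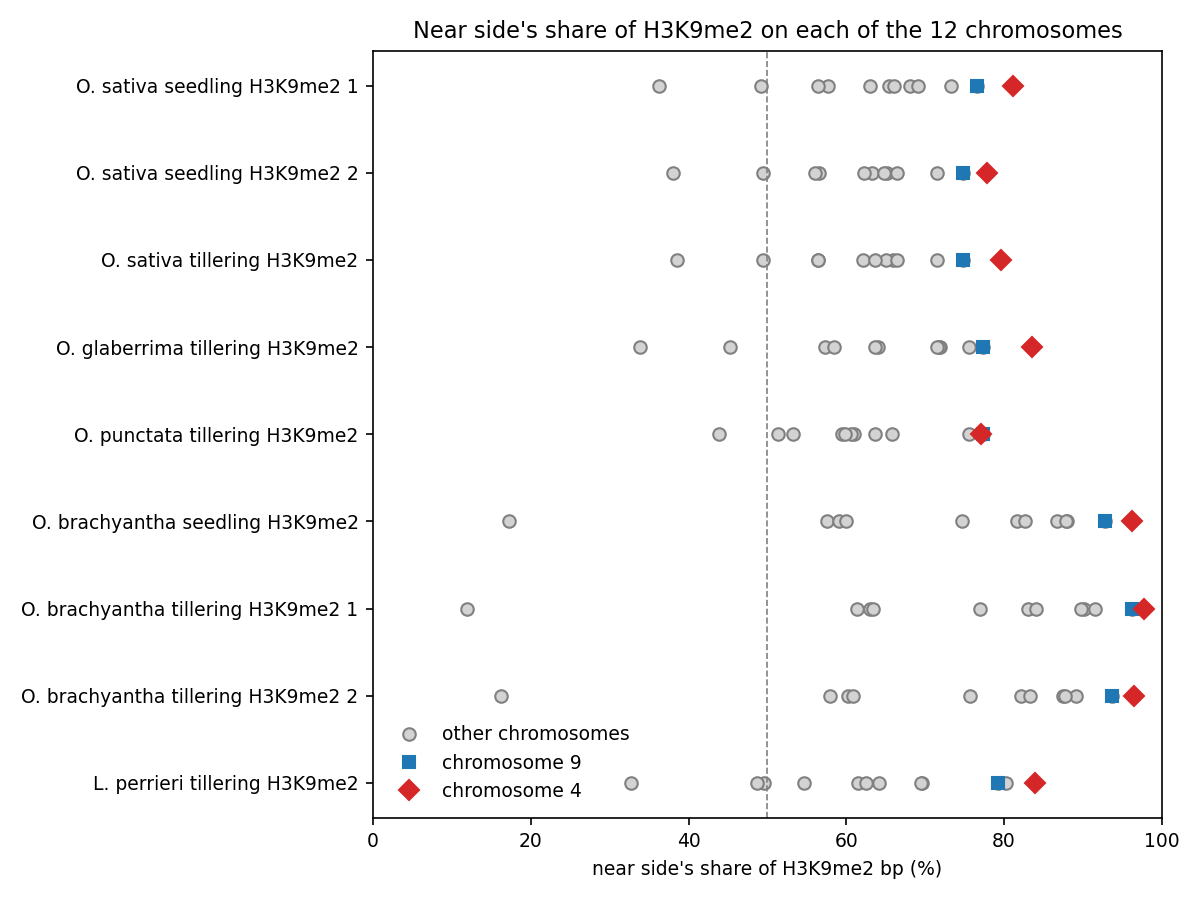
Near side's share of the H3K9me2 bp (%) on each of the 12 chromosomes, 1 row per list, with chromosome 4 as a red diamond, chromosome 9 as a blue square and the others in grey. Chromosome 4 is the rightmost point in 8 of 9 rows and falls just left of chromosome 9 in O. punctata.

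To compare profiles between species, chromosome 4 was cut into 40 bins of equal relative length, of which 38 lay beyond the end margins. Bins at the same relative position are not matched sequences. H3K9me2 coverage per bin at tillering, from the single list of each species and the mean of both batches in O. brachyantha, had Spearman's rho of 0.84 between O. sativa and O. brachyantha, the highest of the 10 species pairs, and of 0.62 between O. punctata and L. perrieri, the lowest. These values describe the shared slope along the chromosome, and neighbouring bins are not independent. The fullest bin covered 20% to 22.5% of the length in O. brachyantha and L. perrieri, 22.5% to 25% in O. glaberrima and O. punctata, and 27.5% to 30% in O. sativa. That bin stood 6.79-fold above the mean bin in O. brachyantha and 2.7-fold above it in O. sativa, with 4.36-fold to 4.66-fold in the other 3 species. The same bins on the other chromosomes gave rho for O. sativa with O. brachyantha of 0.64 to 0.82. Chromosome 4 had the highest rho of the 12 chromosomes in 3 of the 10 species pairs, and it ranked from 2 to 10 in the other 7. For O. punctata with L. perrieri its 0.62 lay below the 0.67 that was the median of the other chromosomes.

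The other heterochromatin mark, H3K27me, leaned to the same side. The labels do not give its number of methyl groups. In O. sativa seedlings H3K27me covered 46.8% of the near side and 13.1% of the far side, with 78.2% of its bp on the near side. In O. brachyantha seedlings it covered 25.3% and 1.79%, with 93.4% on the near side. Across windows H3K27me and H3K9me2 rose and fell together, with Spearman's rho of 0.97 and 0.96 for the O. sativa replicates (68 windows) and 0.96 in O. brachyantha (41 windows). The order held inside each side too, with rho of 0.91 and 0.87 for replicate 1 in O. sativa and 0.97 and 0.79 in O. brachyantha. Over their whole length the other chromosomes gave 0.91 to 0.96 in O. sativa and 0.90 to 0.99 in O. brachyantha. The O. brachyantha seedling lists share 1 input library.

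H3K27me extended beyond H3K9me2 in most windows of chromosome 4, as it did over the genome. Over the 12 chromosomes of O. sativa seedlings, H3K27me covered 24.5% and H3K9me2 16.8% and 18.8% (replicates 1 and 2). In O. brachyantha seedlings these shares were 15.9% and 13.8%. On chromosome 4 the H3K27me share was the higher one in 65 of 68 O. sativa windows and in 36 of 41 O. brachyantha windows. The median excess was 6.83 and 1.25 percentage points. In O. sativa the largest excess, 24.2 points, lay at 15 to 15.5 Mb (centre at 43.2% of the length), where H3K27me covered 42.8% and H3K9me2 18.6% (mean of the seedling replicates). The neighbouring window from 14.5 to 15 Mb had 37.9% and 14.4%, and the next in size, 22.6 points, lay inside the crest at 9.5 to 10 Mb, with 60.6% and 38.0%. In O. brachyantha it lay at 3 to 3.5 Mb, at the start of the rich run, with 54.2% and 37.9%. Most H3K9me2 bp were inside H3K27me peaks, 86.1% on the near side and 84.3% on the far side for O. sativa replicate 1, and 89.0% and 74.3% in O. brachyantha.

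The active marks leaned the other way in both species, as did H3K4me2 in O. brachyantha. In O. sativa, H3K4me3 covered 1.57% of the near side and 5.32% of the far side, 3.38-fold more, and H3K56Ac covered 2.2% and 8.17%, 3.72-fold more. Their near-side shares of 22.8% and 21.2% were the lowest of the 12 chromosomes. In O. brachyantha, H3K4me3 covered 5.6% and 11.6% in seedlings, and its near-side share was 32.7% there and 31.1% and 30.5% in batches 1 and 2 at tillering (30.8 ± 0.475% SD, n = 2). H3K4me2 had 8.5% and 18.7%, H3K56Ac 4.22% and 10.8%, and H3K9Ac 4.07% and 11.9%, the widest of the O. brachyantha gaps at 2.92-fold. Chromosome 4 ranked 10 of 12 for each of these O. brachyantha lists. Reads that mapped to several sites were dropped for H3K56Ac in O. sativa, but each was kept at 1 site drawn at random for H3K9me2 and H3K27me in the same seedlings. The part of this in the H3K56Ac values was not tested.

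H3K27me2, dimethylation of lysine 27, was nearly even between the sides, though not from window to window. In O. brachyantha at tillering it covered 7.23% of the near side and 6.0% of the far side, with 54.7% of its bp on the near side. That share was the highest of the 12 chromosomes, the others lying between 35.6% and 54%. Across windows its rho with H3K9me2 of the same batch was 0.20, with −0.24 inside the near side and 0.13 inside the far side. On the other chromosomes this rho ran from −0.73 to 0.25, with a median of −0.21. The poorest H3K27me2 window of chromosome 4, 3.5 to 4 Mb (2.73%), lay inside the H3K9me2-rich run. The richest, 6 to 6.5 Mb (12%), lay just beyond that run.

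**Figure D3:**
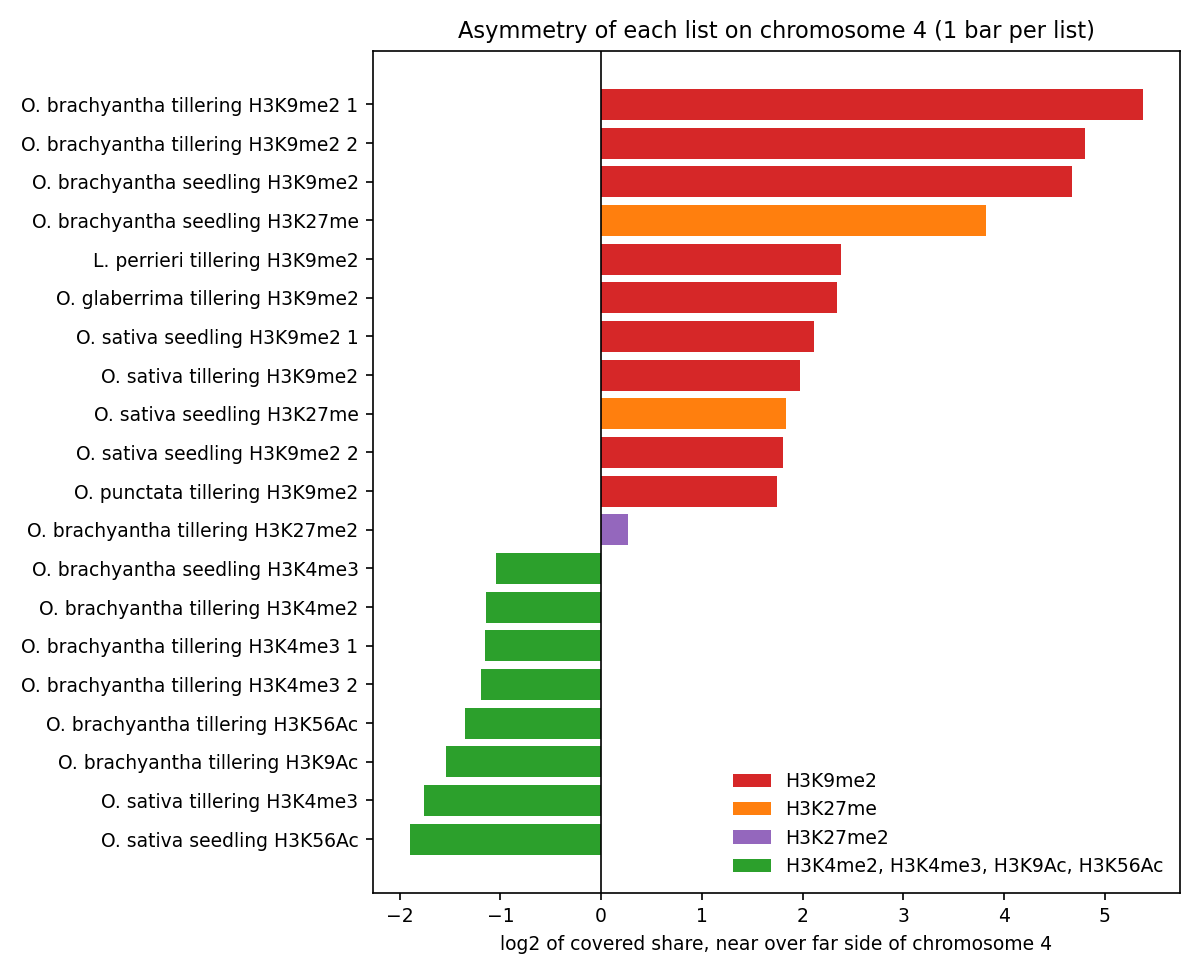
Log2 ratio of covered share, near over far side of chromosome 4, 1 bar per list and coloured by mark. H3K9me2 and H3K27me lie to the right of 0 in every list, H3K27me2 is near 0 with 54.7% of its bp on the near side, and H3K4me2, H3K4me3, H3K9Ac and H3K56Ac lie to the left.

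In O. sativa the active marks stepped up near the midpoint. H3K4me3 windows of the near side held 0.472% to 3.16% and those of the far side 0.915% to 7.55%, with medians of 1.62% and 5.31%. H3K56Ac windows held 0.433% to 4.48% and 4.2% to 12.3%, so the sides barely met. In O. brachyantha the active marks instead fell to a low in or just before the rich run and then climbed to the midpoint. H3K4me3 in seedlings held 6.63% in the window from 0.5 to 1 Mb and 2.19% in the window from 3.5 to 4 Mb. It reached 9.86% at the richest near-side window, and far-side windows held 8.33% to 13.8%. The poorest windows for H3K4me2 (1.91%), H3K4me3 in both batches (1.95% and 2.02%) and H3K56Ac (1.81%) were that same window from 3.5 to 4 Mb, whereas that of H3K9Ac (1.61%) was 2.5 to 3 Mb, just before the rich run.

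**Figure D4:**
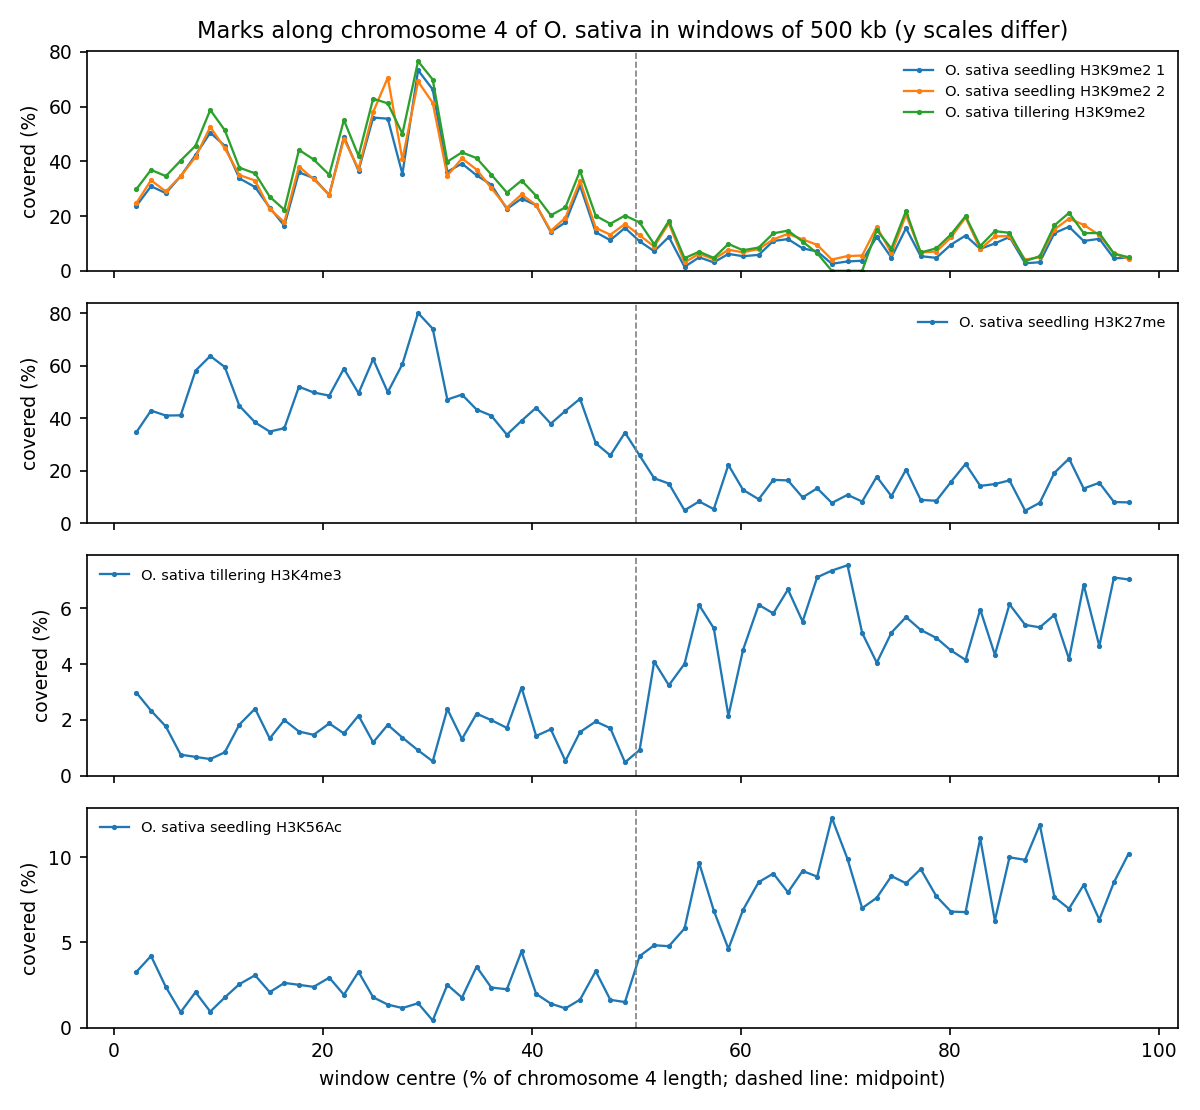
Covered share (%) of H3K9me2, H3K27me, H3K4me3 and H3K56Ac in 500 kb windows of O. sativa chromosome 4 against the window's centre as a percent of length, 1 line per library. The heterochromatin marks fill the left side, the active marks step up near the midpoint, and the tillering H3K9me2 line falls to 0 near 70%.

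Within each side, the opposition between H3K9me2 and the active marks was not the same in both species. Over all windows, rho between H3K9me2 and H3K4me3 was −0.80 in O. sativa at tillering and −0.85, −0.80 and −0.83 in O. brachyantha (seedlings, batch 1 and batch 2). In the near side alone it was −0.31 in O. sativa (34 windows) and −0.86, −0.77 and −0.74 in O. brachyantha (21 windows). In the far side it was −0.38 in O. sativa and −0.14, 0.13 and −0.12 in O. brachyantha, whose far-side windows span only 0% to 3.0% H3K9me2. Over their whole length the other chromosomes gave −0.89 to −0.57 in O. sativa and −0.95 to −0.64 in the O. brachyantha lists. These are descriptions with no test of the difference, and the marks compared at each stage share an input library except in O. brachyantha batch 1. At the scale of single peaks the marks kept apart in both sides: H3K4me3 peaks held 0.0987% of the O. sativa tillering H3K9me2 bp on the near side and 0.118% on the far side, and between 0% and 0.267% in the O. brachyantha lists.

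Genes could be placed in O. brachyantha, where the RefSeq annotation of assembly ObraRS2 had its last gene on each chromosome within 8160 bp of the last peak. The far side held 1320 protein-coding genes and the near side 616, or 127 and 59.2 per Mb, 2.14-fold more. The excess of H3K4me3 coverage on the far side was of like size, 2.06-fold in seedlings and 2.21-fold and 2.28-fold at tillering. Per window there were 12 to 56 genes (median 28) on the near side and 47 to 77 (median 63.5) on the far side, and rho of gene number with tillering H3K9me2 was −0.86 over 41 windows. The rich run from 3 to 6 Mb held 94 protein-coding genes. Pseudogenes went the other way, with 62 on the near side and 36 on the far side. Genes of lncRNA were about even, with 49 and 53.

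Counted per gene, the difference between the sides was smaller than per base. H3K4me3 overlapped 82.5% of near-side genes (95% exact binomial interval 79.2 to 85.4) and 88.7% of far-side genes (86.9 to 90.4) in seedlings. At tillering it overlapped 76.1% and 81.7% in batch 1 and 76.8% and 84.5% in batch 2. H3K9Ac differed most, with 62.7% (58.7 to 66.5) and 79.3% (77.0 to 81.5), followed by H3K56Ac with 70.0% and 84.6%. H3K4me2 overlapped 88.5% and 96.8%. H3K27me2 was the exception, since it overlapped more genes of the near side, 49.5% (45.5 to 53.5) against 40.4% (37.7 to 43.1). The intervals treat genes as independent and cover counting error only. No genome-wide share of genes stands beside these values.

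Within the rich run most genes still carried an active mark. H3K4me3 overlapped 69.1%, 67.0% and 70.2% of the 94 genes there (seedlings, batch 1 and batch 2), against 84.9%, 77.8% and 78.0% of the other 522 near-side genes. Of the 94, 61 carried it in every list, a count with no matching value for other genes. Summed over the lists, the gene with the most H3K4me3 among these 61 was LOC102708794 (chromosome 4, 3341063 to 3351189). It had 2027 bp under H3K4me3 in seedlings and 3808 and 2440 bp at tillering, with 0% of its body under H3K9me2. In seedlings alone LOC102710780 had more, 2233 bp, as did LOC102706184. LOC102706184 (4762985 to 4778112), inside the most covered window of the chromosome, had 2178, 2205 and 1952 bp of H3K4me3, with 0% to 4.42% of its body under H3K9me2. LOC102715566 (5879691 to 5887404) carried both, with 1247, 1351 and 1404 bp of H3K4me3 and 24.5% to 39.8% of its body under H3K9me2. The table of names gives these genes no product.

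Few genes were mostly covered by H3K9me2, and none of them lay on the far side. H3K9me2 lay over 50% or more of the gene body in 15 of 616 near-side genes in seedlings (2.44%), 7 in batch 1 (1.14%) and 13 in batch 2 (2.11%), against 0 of 1320 on the far side in each list (95% exact upper bound 0.279%). In these lists H3K9me2 covered 14.0% to 21.7% of the near side and 0.336% to 0.853% of the far side. No genome-wide share of genes stands beside these counts. Of the near-side genes, 7 passed the limit in all 3 lists. They were LOC102716117 (5919705 to 5950824), LOC102711614 (3673984 to 3692655), LOC121054132 (5950786 to 5958413), LOC121054180 (6864823 to 6866881), LOC121054234 (4790548 to 4792336), LOC102718544 (4340111 to 4341346) and LOC102712523 (5628837 to 5629889). LOC121054180, LOC102718544 and LOC102712523 were covered at 100% in every list. LOC102716117, at 50.6% to 51.8%, was the only one of the 7 with H3K4me3, 1865 bp in seedlings and 797 and 876 bp at tillering, and it overlaps LOC121054132 by its coordinates.

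**Figure D5:**
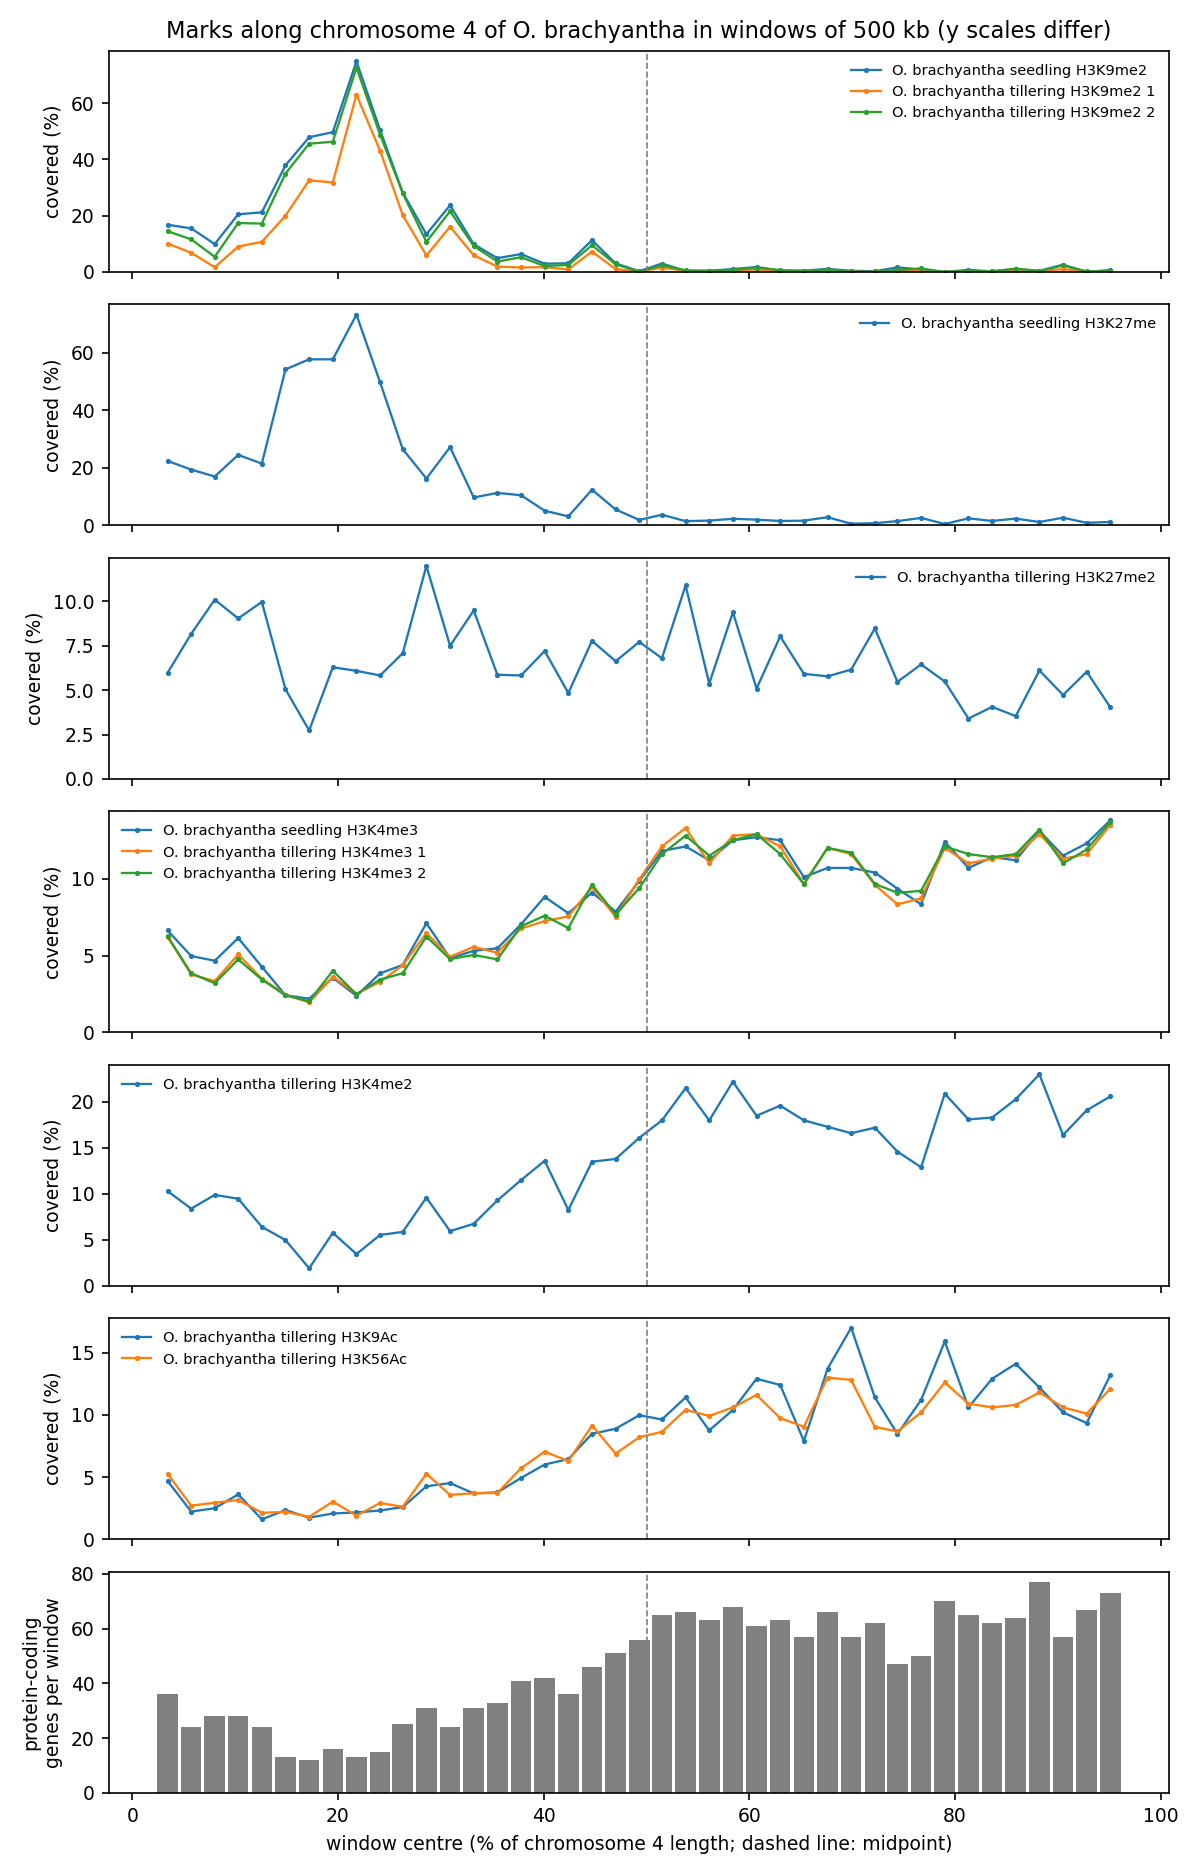
Covered share (%) of 7 marks in 500 kb windows of O. brachyantha chromosome 4, and protein-coding genes per window, against the window's centre as a percent of length, 1 line per library. H3K9me2 and H3K27me crest where genes and active marks are few. The active marks and gene numbers fall toward that crest and climb from it to the midpoint, and H3K27me2 shows no such rise.

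In the far side of O. sativa, the tillering H3K9me2 list had a run of 1.78 Mb with no peak, from 23759214 to 25537935 on tigr6. It was the longest such run in that list, and the next, on chromosome 2, was 0.532 Mb. The seedling lists had peaks in it. Replicate 1 had 55 H3K9me2 peaks over 3.56% of the run and replicate 2 had 63 over 5.58%, less than the 7.78% and 9.93% of their whole far sides. H3K27me had 145 peaks there (9.34%). At tillering H3K4me3, which was called against the same input as the H3K9me2 list, had 218 peaks over 6.92%, against 5.32% of the far side. In the flanks of 1 Mb the tillering H3K9me2 peaks covered 9.59% and 11.5%. Without the run, tillering H3K9me2 covered 11.3% of the far side in place of 10.1%, and the log2 ratio between the sides was 1.81 in place of 1.97.

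A stretch of 120 kb in the crest of O. sativa differed between the seedling replicates. Replicate 2, which was called against a histone H3 library, had a peak of 91.2 kb from 9085231 to 9176414 and, beside it, 1 of 28.6 kb from 9177023 to 9205617. They covered 99.5% of the stretch with −log10 q of 11.9 and 12.1, where the median of that list is 2.09. Only 67 of its 26782 peaks reached 12.1. Their fold enrichment, at most 2.19, was close to the list median of 2.18. Their pileup, a signal that the authors' lists give per peak, reached 128, against a median of 18.3 on the near side. Replicate 1, called against an input library, had 38 peaks over 40.8% of it with −log10 q of at most 2.58. The tillering H3K9me2 list had 28 over 35.3%. Fold there was at most 1.58 in replicate 1 (list median 2.64) and 1.45 at tillering (list median 1.3). Pileup reached 97.5 and 10.9 in these lists, against near-side medians of 10.8 and 7.94. Both lists covered more of the adjoining 100 kb on either side, 80.7% and 64.3% in replicate 1 and 79.6% and 69.7% at tillering. H3K27me had no peak in the stretch, although it covered 73.3% and 64.1% of the adjoining 100 kb. H3K4me3 at tillering had 15 peaks over 3.05%, 1 of them with −log10 q of 240, among the 2 highest of its 28228 peaks. Pileup in the stretch reached 1206 for H3K4me3 (near-side median 27) and 103 for the single H3K56Ac peak (near-side median 48). In the window that holds the stretch, from 9 to 9.5 Mb, H3K9me2 exceeded H3K27me by 13.2 percentage points (63.1% and 49.9%), the widest such margin on the chromosome. Peak names of replicate 1 and H3K27me also carry the word broad, which those of replicate 2 do not. The part of the unlike controls and names in this was not tested. Without the 2 long peaks the mean near-side share of the seedling replicates was 79.3%, against 79.5%.

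The replicates resembled each other more closely for H3K9me2 on the near side than on the far side, where the mark was sparser. Shared bp made up 68.8% of the bp in either O. sativa seedling list on the near side and 61.0% on the far side. For the O. brachyantha batches these values were 67.2% and 38.2%. H3K4me3 of the same batches had 73.5% and 76.5%. Between stages, O. brachyantha seedlings and batch 2 shared 80.5% on the near side and 52.8% on the far side.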

How the data were processed

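Peak lists from above-ground tissue were used as deposited. Tissue (4 g of seedlings or 8 g of tillering plants) was fixed in 3% formaldehyde, sheared to 300 to 500 bp and read as 90 bp pairs, per the labels' protocols. Bowtie, MACS2 and bedtools are named without versions in the submitters' processing notes, and no source used here names the calling threshold. The authors called peaks per library against an input or H3 library named in the titles. The deposited lists give a pileup signal per peak and, joined in 1 column of another kind, the −log10 p, the fold enrichment and the −log10 q. In the O. sativa H3K27me list these −log10 values and the fold ratio stand in columns of their own, per the file contents. The pileup, fold and −log10 q are the authors' values and served only to describe or filter peaks within a list. The bowtie settings for multi-mapped reads are read from the peak names of the 4 O. sativa seedling lists and are not given for the others. Read depth per library is unknown.

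Entries of a list with the same start and end were taken as a single peak, and the peaks that remained did not overlap. Covered bp were summed per side (before or past the midpoint) and per 500 kb window (Python 3.11.15, numpy 2.4.6, pandas 2.3.3, scipy 1.17.1, matplotlib 3.10.9). The steps were tested on simulated lists with known sides. Peaks reaching into the outer 500 kb of a chromosome were left out. Values of the 2 lists of a group are given as mean ± SD. No test was planned, since most groups hold 1 library, and Spearman's rho is a description. The exact permutation test was added after the data were seen. Genes were named by rule: those with at least 50% of the body under H3K9me2 in every O. brachyantha list, and those of the rich windows with most H3K4me3 bp. The 120 kb stretch, the run without peaks and single windows were chosen after their values were seen. The chromosome and these measures were chosen with earlier results of these data known. Alternatives were 250 kb and 1 Mb windows, a 1 Mb margin, clipped peaks, 2 filters on −log10 q, a rich limit of 1.5 times, counts of peaks in place of bp, and leaving out each replicate.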

Additional observations from a re-analysis of the deposited data

How the results depend on the processing

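Over 124 recomputed values, 0 changed direction, 95 stayed within their spread between lists (or, for single lists, within the 95% exact binomial interval of the peak or window count) and 29 moved further. The shares of rich windows among them have no direction that could change, so the 0 bears only on the near-side shares of bp. Windows of 250 kb, a margin of 1 Mb and clipped peaks moved none. Leaving out 1 of 2 replicates cannot move a mean beyond their SD, so the 5 values without each replicate, counted among the 95, say nothing of stability. They ran from 77.8% to 81.2% for the near-side share of O. sativa seedling H3K9me2, 96.5% to 97.7% for O. brachyantha tillering H3K9me2 and 30.5% to 31.1% for its H3K4me3, and the share of rich windows ran from 32.4% to 50% in O. sativa seedlings and was 28.6% both times in O. brachyantha. Counting peaks in place of bp moved the near-side share for O. sativa to 76.4% (seedling H3K9me2), 76.0% (tillering H3K9me2), 69.2% (H3K27me) and 26.4% (H3K4me3), for O. glaberrima to 78.9%, and for O. brachyantha to 88.8% (seedling H3K9me2), 90.5% (tillering H3K9me2), 81.3% (H3K27me), 33.7% (tillering H3K4me3) and 58.2% (H3K27me2). A −log10 q of at least 2 gave 80.3% for O. sativa H3K27me, 76.3% for O. sativa tillering H3K9me2, 78.1% for O. glaberrima, 80.8% for O. punctata, 98.0% for O. brachyantha tillering H3K9me2 and 73.8% for L. perrieri. The 50% of peaks of highest −log10 q gave 80.5% for O. sativa H3K27me, 23.4% for its H3K56Ac and 20.9% for its H3K4me3, and in O. brachyantha at tillering 98.2% for H3K9me2, 29.4% for H3K4me3, 27.6% for H3K9Ac and 51.2% for H3K27me2. The share of near-side windows that were rich rose, with the limit at 1.5 times, to 67.6% in O. sativa seedlings, 70.6% at tillering and 33.3% in O. brachyantha at tillering. There it was 30.0% with 1 Mb windows and 26.2% with −log10 q of at least 2, a filter that left 4.55% in L. perrieri. The cause of these moves was not tested. No paired analysis was possible because the only test across samples compares species, and no batch label links their lists. The lists of batches 1 and 2 were compared between marks without a test. Depth is unknown, so the near absence of H3K9me2 from the far side of O. brachyantha cannot be told apart from signal below the authors' calling limit.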
